A study of Mus musculus with 77 samples.

Results

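The 7 genes described here encode receptors through which follicle-stimulating hormone (FSH), steroids, thyroid hormone, insulin and insulin-like growth factors (IGFs) reach the Sertoli cells of the testis. They were taken by name, as Fshr, Esr1, Esr2, Nr3c1, Thra, Insr and Igf1r, from the 19938 genes that had a probe set listed with 1 gene only. Their RNA was measured on 77 arrays from mouse testes that carried a RiboTag allele, which adds an epitope to a ribosomal protein in cells where Cre recombinase is active. Every animal had received BDAD, an inhibitor of retinoic acid synthesis, for 9 days; animals of time 0 received nothing further, and all others were then injected with retinoic acid (RA). The Amh-Cre line, in which the Amh promoter drives Cre in Sertoli cells, gave 16 arrays of RNA precipitated with the tagged ribosomes (IP RNA) and 14 of total testis RNA, both on the FVB/N strain. Germ cells were tagged in the Stra8-Cre line, also FVB/N, with 16 IP and 23 total arrays, and in the Ngn3-Cre line, C57BL/6, with 4 IP and 4 total arrays, so that line and strain cannot be told apart for Ngn3-Cre. Times were 0, 4, 12, 24 and 48 h and 4, 6 and 8 d after RA (0 and 4 h for Ngn3-Cre), with 2 arrays in 31 of the 35 groups, 3 in 1 and 4 in 3; no total RNA of the Amh line at 4 h was used. No group received an injection without RA, and the age of the animals is not given in the sources used here, so RA, the injection, the end of BDAD treatment and age cannot be told apart.

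Sertoli cells are the somatic cells that surround and feed the germ cells. FSH acts on them through FSHR, a receptor of the cell surface that signals through cyclic AMP and drives their proliferation before puberty and their support of spermatogenesis afterwards. Thyroid hormone, through the nuclear receptor encoded by Thra, is known to end their proliferation and to start maturation, while insulin and IGF1, through the tyrosine kinase receptors INSR and IGF1R, set their number and the size of the testis. The estrogen receptors ESR1 and ESR2 and the glucocorticoid receptor encoded by Nr3c1 are ligand-activated transcription factors.

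The upstream sequences of Fshr and Esr2 are shown because transcription of Fshr in Sertoli cells is known to use an E box, CACGTG, next to the start site, and because these were the member genes whose windows held those letters. RefSeq (mouse assembly GRCm38.p6) gave a promoter window for 4 of the 7 members, namely Fshr, Esr1 (with 2 start sites), Esr2 and Igf1r. The 250 bases before the start site are printed 5′ to 3′ on the gene's own strand, with the E box in capitals, for Fshr at chr17:89200676-89200925 (minus strand) and for Esr2 at chr12:76177260-76177509 (minus strand).
Fshr: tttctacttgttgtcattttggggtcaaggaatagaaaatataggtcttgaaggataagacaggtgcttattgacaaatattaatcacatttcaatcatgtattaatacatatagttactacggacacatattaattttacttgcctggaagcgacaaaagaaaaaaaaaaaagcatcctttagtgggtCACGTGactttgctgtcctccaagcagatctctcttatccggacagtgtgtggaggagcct
Esr2: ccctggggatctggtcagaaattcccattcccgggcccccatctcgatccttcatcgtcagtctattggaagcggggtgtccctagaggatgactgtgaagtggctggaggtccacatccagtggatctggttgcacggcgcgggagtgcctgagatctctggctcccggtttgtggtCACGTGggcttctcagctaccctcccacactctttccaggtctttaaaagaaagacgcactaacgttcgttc
The E box began 61 bases upstream of the start site in Fshr and 72 bases upstream in Esr2, and its letters were in neither Esr1 window nor in that of Igf1r. Of the 32851 windows of the same length in the table, 6.02% held CACGTG. Searched on both strands in the same way, GATAAG, a motif of GATA factors, lay at 197 and 28 bases upstream in Fshr and in no other member window (6.55% of all windows), and AGGTCA, letters that many nuclear receptors bind, lay 86 bases upstream in Igf1r alone (14.02%). These matches are descriptions of the letters, and no binding was measured.

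The values are RMA intensities, a normalised probe set signal, on a log2 scale. Array medians lay between 7.98 and 8.23. A probe set's level is not comparable with that of another gene, so comparisons below are within a gene. All 13 Sertoli markers (among them Amh, Sox9 and Wt1) were higher in Amh IP than in Stra8 IP RNA and all 10 germ cell markers (among them Ddx4 and Dazl) were lower, as the labels name the lines. The log2 of the Sertoli markers' summed intensity was 16.39 to 16.59 over the Amh IP arrays and 12.96 to 15.16 over the Stra8 IP arrays. Germ cell markers summed to 11.94 to 12.80 and to 15.23 to 15.58 in the same order. Amh arrays labelled 4 h and 4 d stood apart. Rarb, an early target of RA, was 7.18 and 7.16 in Amh IP arrays labelled 4 h but 8.58 and 8.56 in those labelled 4 d, against 7.07 and 7.02 at time 0, whereas Stra8 IP arrays held 9.28 and 9.21 at 4 h and 7.05 and 7.18 at 4 d, and Ngn3 IP arrays 9.04 and 9.05 at 4 h. The Amh arrays labelled 4 h and 4 d thus go against these courses, and whether their labels were exchanged was not tested. Calls that change without them are given beside the result. Leaving out 3 Stra8 total arrays with a narrow range of signal (4 h replicate 1, 24 h replicates 3 and 4) ended no call between fractions or lines, by F test over the times or late minus early. Calls of a single time against time 0 were not checked without them.

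Fshr had the largest difference of the 7 members between each germ cell IP and total RNA and between the Amh and Stra8 IPs. In Amh IP RNA its log2 level ran from 11.11 to 11.80 with a median of 11.52 over 16 arrays, in Amh total RNA from 10.30 to 11.02 with a median of 10.53 over 14, and in Stra8 total RNA from 10.45 to 11.34 with a median of 10.91 over 23. Stra8 IP arrays held 7.51 to 9.57, with a median of 8.60, and the 4 Ngn3 IP arrays 8.40 to 9.01, against 10.88 to 11.12 in Ngn3 total RNA. Every Amh IP array was above every total array of that line, and every germ cell IP array was below every total array of its line. Over the 7 times with both fractions, Fshr was higher in Amh IP than in total RNA by 0.91 ± 0.07 (SE, 14 arrays against 14), or 1.88-fold (adjusted p = 3.47e-16). It was lower in Stra8 IP RNA by 4.48-fold (log2 difference -2.16 ± 0.06, 16 arrays against 23, adjusted p = 3.14e-33) and in Ngn3 IP RNA by 4.78-fold (-2.26 ± 0.13, 4 against 4, adjusted p = 7.27e-20). Between the IP fractions the excess in Amh over Stra8 was 7.32-fold (2.87 ± 0.07, 16 against 16, adjusted p = 2.82e-38). The log2 difference was 3.03 without the arrays labelled 4 h and 4 d.

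**Figure D1:**
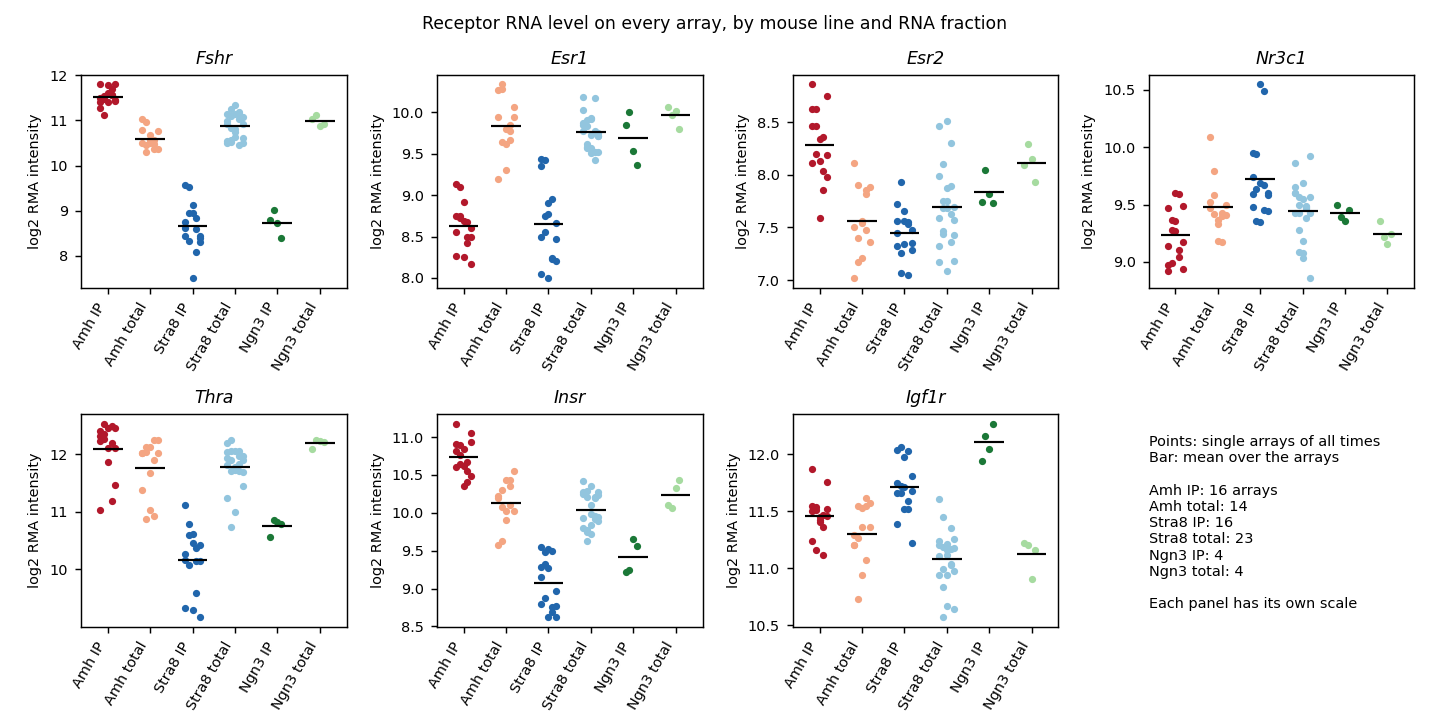
Log2 RMA intensity of each receptor gene (a panel each, own vertical scale) on every array, grouped by line and RNA fraction; points are arrays of all times and bars are means. Fshr arrays of the Amh IP (11.11 to 11.80) lie above those of Amh total RNA (10.30 to 11.02), while those of the Stra8 IP reach 9.57 at most; Igf1r is highest in the Ngn3 IP (11.94 to 12.27).

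The estrogen receptors differed from each other. Esr1, the alpha form, known in the testis from Leydig and peritubular cells, ran from 8.17 to 9.14 in Amh IP RNA and from 9.20 to 10.34 in Amh total RNA, with no overlap over the 14 arrays of each. It was lower in the IP by 2.30-fold (-1.20 ± 0.06, adjusted p = 2.35e-22), the only member called lower there by the rule of an adjusted p under 0.05 and at least 2-fold. Esr1 was also lower in Stra8 IP than in Stra8 total RNA (-1.08 ± 0.06, 2.12-fold, adjusted p = 2.57e-23), where arrays ran from 8.00 to 9.44 against 9.42 to 10.18. The Amh and Stra8 IP fractions had a difference of -0.03 for Esr1, with a 95% interval from -0.15 to 0.09 (adjusted p = 0.658). In the Ngn3 line Esr1 was 9.85 and 10.00 in the IP at time 0 and 9.53 and 9.37 at 4 h, against 9.80 to 10.06 in total RNA. The difference of -0.27 ± 0.12 (adjusted p = 0.0473) missed the threshold when any of 5 of the 8 arrays was left out (adjusted p up to 0.177) and with median centring (0.0503).

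Esr2, the beta form, went the other way in Sertoli cells. Amh IP arrays held 7.59 to 8.86 (median 8.27) and Amh total arrays 7.02 to 8.11 (median 7.52), so the ranges overlapped, but the IP mean was above the total mean at each of the 7 times, by 0.61 to 1.09. The difference was 0.76 ± 0.06, or 1.69-fold (adjusted p = 3.18e-17). Against Stra8 IP RNA (7.05 to 7.93) Esr2 was higher in Amh IP RNA by 0.84 ± 0.05 (adjusted p = 1.48e-20). In the germ cell lines it was lower in the IP than in total RNA by small amounts, -0.19 ± 0.05 in Stra8 (adjusted p = 0.000404) and -0.28 ± 0.10 in Ngn3 (adjusted p = 0.0175, up to 0.135 when single arrays were left out and 0.0646 with median centring). Esr2 values lay on either side of the array medians.

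Averaged over the times, Nr3c1 differed by 1.40-fold at most between fractions and lines. Amh IP arrays held 8.92 to 9.60, Amh total arrays 9.17 to 10.09, Stra8 IP arrays 9.35 to 10.55 and Stra8 total arrays 8.86 to 9.92, and all of these ranges overlap. The gene was lower in Amh IP than in Amh total RNA by 0.29 on the log2 scale (-0.29 ± 0.06, adjusted p = 5.87e-05) and higher in Stra8 IP than in Stra8 total RNA by 0.25 ± 0.06 (adjusted p = 9.84e-05). It was therefore 1.40-fold lower in the Amh than in the Stra8 IP (-0.49 ± 0.06, adjusted p = 2.67e-10). At 6 d the IPs were further apart, with Nr3c1 at 9.10 to 9.36 in Amh and 10.49 to 10.55 in Stra8. In the Ngn3 line the difference was 0.18 ± 0.12, with a 95% interval from -0.06 to 0.42 (adjusted p = 0.209; 0.0168 after quantile normalisation).

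Thra shared with Fshr its low level in germ cell IP RNA, but was only slightly higher in Amh IP than in Amh total RNA. Stra8 IP arrays held 9.17 to 11.11 against 10.74 to 12.25 in Stra8 total RNA, and Ngn3 IP arrays 10.56 to 10.85 against 12.09 to 12.24. The gene was lower in the IP by 2.88-fold in Stra8 (-1.53 ± 0.06, adjusted p = 1.67e-29) and by 2.72-fold in Ngn3 (-1.44 ± 0.12, adjusted p = 4.09e-15), and 3.81-fold higher in the Amh than in the Stra8 IP (1.93 ± 0.06, adjusted p = 2.74e-33). In the Amh line the IP exceeded total RNA at all 7 times by 0.21 to 0.43, a difference of 0.32 ± 0.06 (adjusted p = 1.28e-05) that was 0.10 (adjusted p = 0.131) after quantile normalisation. The 13 Sertoli markers themselves were higher in that comparison by a median of 0.67. Thra overlaps the neighbouring gene Nr1d1 in the RefSeq annotation, and whether the array reads strand is not given in the sources used here, so the Thra signal is uncertain to that extent. Esr2 likewise overlaps a pseudogene, Gm7862, and Igf1r overlaps the long non-coding RNA genes Gm51488 and Gm51487. Nr1d1 itself was higher in Stra8 IP than in total RNA by 0.83 ± 0.04 (adjusted p = 7.25e-23) and lower in the Amh than in the Stra8 IP by 0.77 (-0.77 ± 0.05, adjusted p = 1.14e-20), the opposite direction to Thra in both comparisons.

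Of the 2 tyrosine kinase receptors, averaged over the times, Insr was higher in Sertoli cell RNA and Igf1r in germ cell RNA. Insr ran from 10.35 to 11.18 in Amh IP arrays and from 8.62 to 9.55 in Stra8 IP arrays, with no overlap, a 3.16-fold difference (1.66 ± 0.06, adjusted p = 1.51e-31). Within lines it was higher in Amh IP than in total RNA by 1.53-fold (0.62 ± 0.06, adjusted p = 4.92e-13) and lower in the germ cell IPs, by 1.96-fold in Stra8 (-0.97 ± 0.05, adjusted p = 1.38e-22) and 1.76-fold in Ngn3 (-0.81 ± 0.11, adjusted p = 1.27e-08). Taking the mean of its 2 probe sets gave a log2 difference of 1.52 between the IPs. Igf1r, by contrast, ran from 11.94 to 12.27 in Ngn3 IP arrays and from 10.91 to 11.22 in Ngn3 total arrays without overlap, and was 1.98-fold higher in the IP (0.98 ± 0.11, adjusted p = 1.79e-10). It was 1.54-fold higher in Stra8 IP than in total RNA (0.63 ± 0.05, adjusted p = 5.36e-15), at all 8 times, and 1.19-fold lower in the Amh than in the Stra8 IP (-0.25 ± 0.06, adjusted p = 0.000126). Amh IP and Amh total RNA differed in Igf1r by 0.16 ± 0.06 (adjusted p = 0.0208), but the sign turned after quantile normalisation (-0.05, adjusted p = 0.342). It missed the threshold without Amh total 6 d replicate 2 (0.0704) or Amh IP 6 d replicate 1 (0.0532), and the IP was above total RNA at 4 of 7 times.

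**Figure D2:**
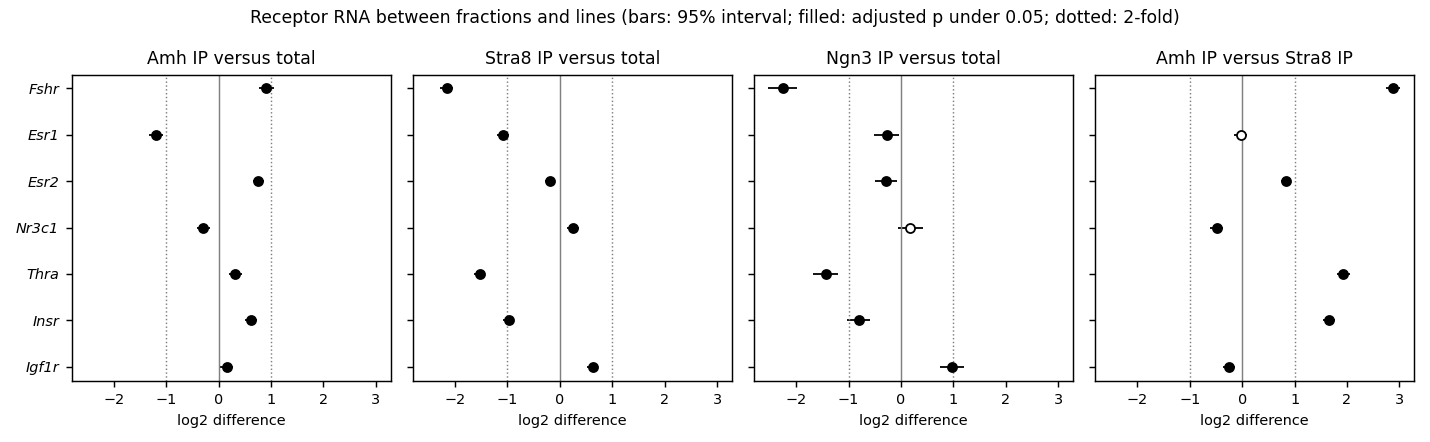
Log2 difference of each receptor gene (rows) between IP and total RNA in the 3 lines and between the Amh and Stra8 IP; points are fitted differences, bars 95% intervals, filled points have an adjusted p under 0.05 and dotted lines mark 2-fold. Fshr lies at 0.91, -2.16, -2.26 and 2.87, Igf1r is to the right in both germ cell IPs (0.63 and 0.98), and the open points are Nr3c1 in Ngn3 (0.18) and Esr1 between the IPs (-0.03).

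Counts over the members can be read against those over all 19938 genes. In Amh IP against total RNA, 1 member was called lower, where 3.94% of all genes were, and 0 higher, where 1.10% were. With no fold minimum 5 members were higher (51.0% of all genes) and 2 lower (23.2%). The median member differed by 0.32 and the median of all genes by 0.12 (0.25 after median centring). Of the 13 Sertoli markers, 2 were called higher there, and the median of the 13 was 0.67. In Stra8 IP against total RNA, 3 members were called lower (5.37% of all genes), and 2 passed the test as higher and 5 as lower (42.4% and 28.9%), with medians of -0.97 for the members and 0.04 for all genes. For Ngn3 IP against total RNA, 2 were called lower (6.75%), and 1 passed as higher and 5 as lower (31.5% and 24.1%). Between Amh and Stra8 IP RNA, 3 members were called higher in Amh (9.26%). With no fold minimum 4 passed as higher (33.9%) and 2 as lower (32.6%). In the total RNA of the same lines 0 members were called (0.0301% of all genes) and 2 passed (18.0%). These were Fshr (-0.26, adjusted p = 0.00499) and Igf1r (0.20, adjusted p = 0.0108), both lost with the replicate number as a block (adjusted p = 0.203 and 0.135). With these doubted Amh arrays (labelled 4 h and 4 d) left out, Esr2 passed too (-0.23, adjusted p = 0.00647, against -0.10 and 0.149). Shares that pass without a fold minimum are large for all genes, so those member counts are near the background in several of these comparisons. Whether replicates are separate animals is not given in the sources used here, and the p-values then measure only the spread between these arrays, which may be technical.

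At 4 h after RA no member passed limma's test in germ cell IP RNA. In Stra8 IP RNA 0 of 7 members passed at 4 h against time 0 (1.65% of all genes passed, and 1 member had an unadjusted p under 0.05), in Ngn3 IP RNA 0 of 7 (2.06%, 2 unadjusted), and in Ngn3 total RNA 0 of 7 (1.17%, 0 unadjusted). In Stra8 total RNA at 4 h Fshr (10.61, 10.50 and 10.51 against 11.14 to 11.34 at time 0; -0.68 ± 0.14, adjusted p = 0.00072) and Esr2 (-0.86 ± 0.11, adjusted p = 6.54e-07) were lower, and Fshr was 11.14 and 11.04 at 12 h. These arrays did not match each other, as Rarb was 8.52 in replicate 1 but 6.98 and 6.99 in replicates 2 and 3, against 7.04 to 7.32 at time 0. Fshr was 10.61 and Esr2 7.69 in replicate 1, both below all 4 arrays of time 0. In the Amh IP arrays labelled 4 h Esr1 (-0.57 ± 0.17, adjusted p = 0.0165) and Esr2 (-0.53 ± 0.15, adjusted p = 0.00862) were lower than at time 0. Over the whole course most members varied. By moderated F tests over the times, 6 members passed in Amh IP RNA (53.3% of all genes), 7 in Stra8 IP RNA (57.8%), 7 in Amh total RNA (54.4%) and 7 in Stra8 total RNA (65.9%). With a largest difference from time 0 of at least 2-fold the counts were 0 (7.62%), 4 (10.8%), 1 (7.66%) and 2 (6.90%). The F tests of Igf1r in Amh IP, Fshr and Nr3c1 in Amh total, Esr2 in Stra8 IP and Esr1, Nr3c1, Insr and Igf1r in Stra8 total RNA missed the threshold when certain single arrays were left out (adjusted p up to 0.278). The last 4 missed it also in a fit of the compared groups alone (0.141 to 0.397), and that of Fshr in Amh total RNA (adjusted p = 0.0408) without the arrays labelled 4 h and 4 d (0.0556).

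**Figure D3:**
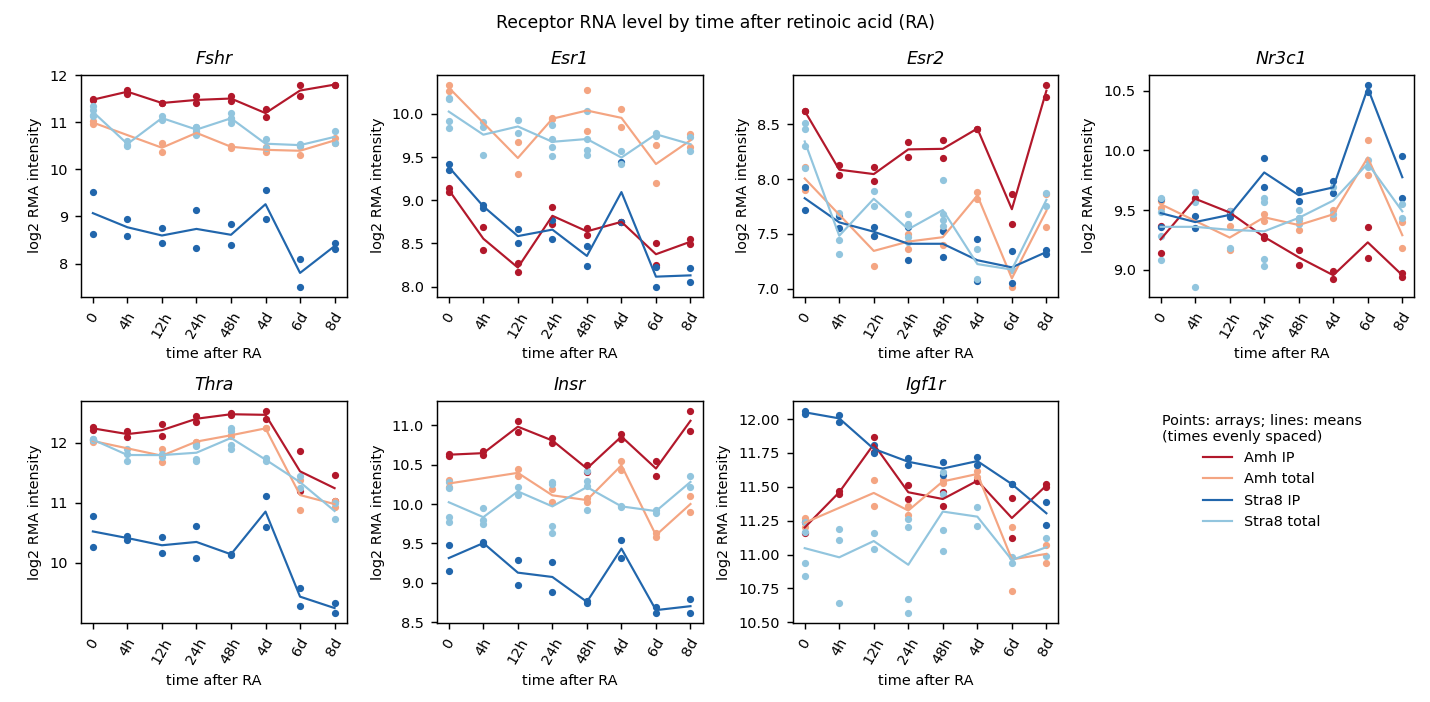
Log2 RMA intensity of each receptor gene against time after RA (times evenly spaced, not to scale), with points for arrays and lines for means of Amh IP, Amh total, Stra8 IP and Stra8 total RNA. Thra falls in all 4 courses at 6 d and 8 d, Fshr stays between 11.11 and 11.80 in the Amh IP, and Nr3c1 peaks at 6 d in the Stra8 IP (10.55 and 10.49).

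Thra fell late in all 4 courses, by close to 2-fold. In Amh IP RNA its arrays held 12.22 and 12.26 at time 0, 12.11 and 12.31 at 12 h, 12.35 and 12.45 at 24 h, 12.49 and 12.46 at 48 h, 11.86 and 11.19 at 6 d, 11.46 and 11.03 at 8 d. The 4 late arrays were all below the 8 earlier ones. Taking 6 d and 8 d together as late, and 0, 12, 24 and 48 h as early, the late minus early difference was -0.95 ± 0.10 (1.93-fold, adjusted p = 1.09e-10). Stra8 IP arrays moved from 10.08 to 10.79 early to 9.17 to 9.59 late (-0.98 ± 0.10, adjusted p = 1.67e-11). Amh total arrays moved from 11.68 to 12.13 to 10.88 to 11.38 (-0.94 ± 0.10, adjusted p = 1.77e-10) and Stra8 total arrays from 11.70 to 12.25 to 10.74 to 11.45 (-0.83 ± 0.10, adjusted p = 5.09e-10). Early and late arrays did not overlap in any of the 4 courses. The Amh and Stra8 IP fractions differed in this change by 0.04, with a 95% interval from -0.25 to 0.33 (adjusted p = 0.86). Nr1d1, which overlaps Thra, rose late in Amh IP RNA (0.58 ± 0.08, adjusted p = 7.18e-08) and fell in Stra8 IP RNA (-0.78 ± 0.08, adjusted p = 1.59e-11).

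Fshr had no late fall in Sertoli cell RNA. Amh IP arrays held 11.49 and 11.47 at time 0, 11.42 and 11.40 at 12 h, 11.55 and 11.40 at 24 h, 11.56 and 11.45 at 48 h, 11.79 and 11.56 at 6 d and 11.80 and 11.80 at 8 d. The late values were at or above the early ones, with a difference of 0.27 ± 0.12 that missed the threshold (adjusted p = 0.0679) but passed it in a fit of the compared groups alone (0.000647). In total RNA of the Amh line the difference was -0.17 ± 0.12 (adjusted p = 0.28; 0.0232 in a fit of the compared groups alone), and in that of the Stra8 line Fshr fell by 0.46 on the log2 scale (-0.46 ± 0.11, adjusted p = 0.00048). The Amh IP minus Amh total difference accordingly ran from 0.48 at time 0 to 1.28 at 6 d. In bulk samples fewer cells of a type and less RNA per cell cannot be told apart. Within Stra8 IP RNA Fshr fell late by 0.67 (-0.67 ± 0.12, adjusted p = 3.32e-06), reaching 7.51 and 8.09 at 6 d, and the difference of the late changes between the Amh and Stra8 IP fractions was 0.94 ± 0.16 (adjusted p = 5.15e-06).

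Esr1 was highest at time 0 in Amh IP RNA, with 9.14 and 9.10, and lowest at 12 h, with 8.17 and 8.27 (-0.90 ± 0.17 against time 0, adjusted p = 0.000117). It was then 8.72 and 8.92 at 24 h and 8.49 and 8.55 at 8 d. The late minus early difference of -0.26 ± 0.10 missed the threshold (adjusted p = 0.0516) but passed it with median centring (0.0285) and in a fit of the compared groups alone (0.00483). Amh total arrays also fell from 10.27 and 10.34 at time 0 to 9.31 and 9.67 at 12 h (-0.82 ± 0.17, adjusted p = 0.000814). In the Stra8 IP Esr1 fell from 9.35 and 9.42 at time 0 to 8.00 and 8.23 at 6 d (-1.27 ± 0.17, adjusted p = 2.95e-08). The late changes differed between the IPs by 0.37 ± 0.15 (adjusted p = 0.0404), which rose to 0.127 at most when single arrays were left out.

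In the Amh line Esr2 showed a dip at 6 d. Amh IP arrays were 8.62 and 8.62 at time 0, 7.98 and 8.11 at 12 h, 7.59 and 7.86 at 6 d, and 8.75 and 8.86 at 8 d. The fall to 6 d was -0.89 ± 0.15 against time 0 (adjusted p = 5.02e-06), while the 8 d arrays lay above those of time 0 and did not pass against them. Amh total arrays were likewise lowest at 6 d, 7.02 and 7.17 against 8.11 and 7.90 at time 0 (-0.91 ± 0.15, adjusted p = 5.2e-06). Stra8 total arrays fell to 7.18 and 7.17 at 6 d (-1.16 ± 0.13, adjusted p = 3.93e-10), but were already 7.09 and 7.36 at 4 d. Stra8 IP means were 7.26 at 4 d, 7.20 at 6 d and 7.34 at 8 d. With 6 d and 8 d averaged, the late minus early difference of Esr2 in Amh IP RNA was -0.04 ± 0.09 (adjusted p = 0.81).

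Nr3c1 was highest at 6 d in Stra8 IP RNA and in the total RNA of the Amh and Stra8 lines. Stra8 IP arrays held 9.59 and 9.36 at time 0, 9.67 and 9.58 at 48 h, 10.55 and 10.49 at 6 d and 9.60 and 9.95 at 8 d, so the 6 d arrays stood above the other 14. The rise against time 0 was 1.05 ± 0.17 (2-fold rule passed, adjusted p = 1.52e-06). Stra8 total RNA rose by 0.53 ± 0.15 at 6 d (adjusted p = 0.00348). Amh total arrays held 10.09 and 9.79 at 6 d, against 9.52 and 9.58 at time 0. Their late minus early difference was 0.21 (adjusted p = 0.118). It passed with median centring (0.0238), quantile normalisation (0.0309) and in a fit of the compared groups alone (0.0327). In Amh IP RNA the late minus early difference was -0.19 ± 0.10 (adjusted p = 0.17; 0.0285 in a fit of the compared groups alone), and the change differed from that of the Stra8 IP by -0.75 ± 0.15 (adjusted p = 3.72e-05). The F test of Nr3c1 over the Amh IP course (adjusted p = 0.00763) rested on the arrays labelled 4 h and 4 d, without which the adjusted p was 0.148.

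The largest difference of Insr and of Igf1r from time 0 was under 2-fold in all 4 courses. Insr in Amh IP RNA was 10.61 and 10.64 at time 0, 11.05 and 10.91 at 12 h, 10.35 and 10.55 at 6 d and 10.93 and 11.18 at 8 d, which was a rise of 0.43 ± 0.16 against time 0 at 8 d (adjusted p = 0.0333). In Amh total RNA Insr fell to 9.58 and 9.63 at 6 d from 10.22 and 10.30 (-0.65 ± 0.16, adjusted p = 0.0015). Igf1r rose at 12 h in Amh IP RNA, from 11.24 and 11.16 to 11.76 and 11.87 (0.62 ± 0.16, adjusted p = 0.00647), and was 11.42 and 11.12 at 6 d. In Stra8 IP RNA it fell from 12.04 and 12.06 at time 0 to 11.22 and 11.39 at 8 d (-0.75 ± 0.16, adjusted p = 0.000172), with every late array below every early array.

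Late minus early, 1 member passed as lower in Amh IP RNA, Thra, where 15.1% of all genes passed as lower. In Stra8 IP RNA 6 members passed as lower (21.6%) and 1, Nr3c1, as higher (22.2%). Among total RNA, 4 members of the Amh line were lower (18.2%), namely Esr1, Thra, Insr and Igf1r, and in the Stra8 line Fshr, Esr2 and Thra were lower (17.0%) and Nr3c1 higher (24.5%). Esr2 in Stra8 IP RNA missed the threshold without 6 d replicate 2 (adjusted p = 0.123) and Esr1 in Amh total RNA without 6 d replicate 1 (0.0594). With quantile normalisation Esr1 (-0.25, adjusted p = 0.0189, against -0.11) and Igf1r (-0.18, adjusted p = 0.045, against -0.09) also passed as lower in Stra8 total RNA. No member reached 2-fold in these 4 comparisons, where 2.21%, 3.38%, 2.20% and 2.54% of all genes were called in the same order. Between the IP fractions the late change was higher in Amh for 3 members (20.5% of all genes), Fshr, Esr1 and Insr, and lower for 1, Nr3c1 (20.4%), with 0 at 2-fold (5.05%). Esr1 missed the threshold there in 14 of 31 alternatives. Igf1r (0.29, adjusted p = 0.0879) passed with median centring (0.0264), quantile normalisation (0.0176) and the compared groups alone (0.00233). It also passed without Amh IP 6 d replicate 2 (0.046). All of these comparisons share their arrays with the courses above.

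**Figure D4:**
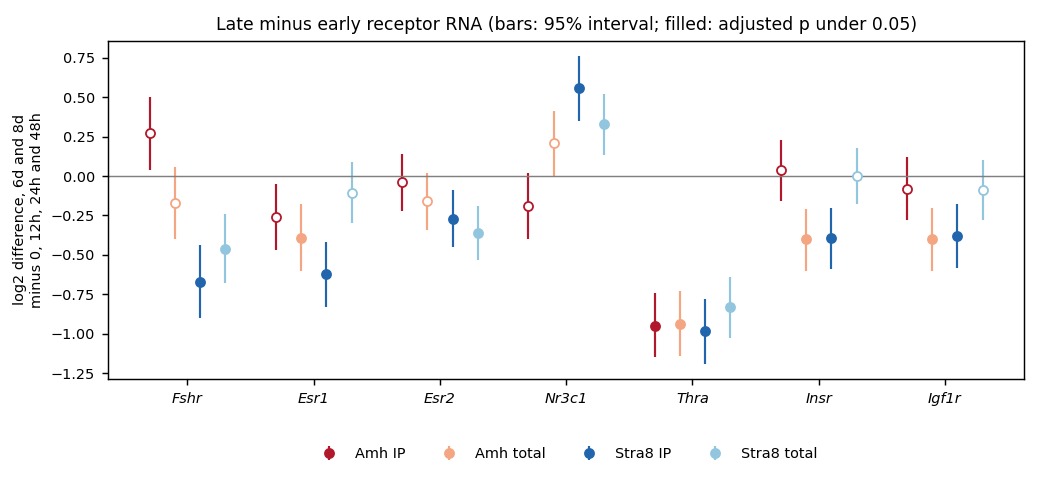
Late minus early log2 difference (6 d and 8 d minus 0, 12, 24 and 48 h) of each receptor gene in the Amh IP, Amh total, Stra8 IP and Stra8 total courses, with 95% intervals; filled points have an adjusted p under 0.05. Thra is at -0.95, -0.94, -0.98 and -0.83, whereas Fshr is at 0.27 in the Amh IP and -0.67 in the Stra8 IP.

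Sertoli marker RNA moved with several members inside the Stra8 IP. The summed level of the 13 markers was 13.46 to 14.61 in the early arrays and 12.96 to 13.35 in the late ones, without overlap, and 10 of the 13 passed as lower late (median difference -0.63). All 6 endothelial markers passed as lower late there too (median difference -0.47). In the Amh IP the Sertoli sum was 16.39 to 16.56 early and 16.43 to 16.59 late, while macrophage markers summed to 10.22 to 10.56 early and 10.87 to 11.59 late, with 1 of 6 passing as higher. Germ cell markers summed to 15.44 to 15.58 early and 15.24 to 15.36 late in the Stra8 IP, where 5 of 10 passed as lower and 1 as higher and Igf1r also fell. In the Amh IP 5 of the 10 passed as higher late and 2 as lower (median difference 0.41). In total RNA the endothelial sum went from 12.83 to 13.11 early to 12.12 to 12.58 late in the Amh line, where all 6 markers passed as lower. In the Stra8 line the Sertoli sum was at least 15.88 in early arrays and 15.66 to 15.80 in late ones, with 5 of 13 markers lower and 2 higher. The part of these markers in the late changes was not tested. The 3 Stra8 IP arrays with the highest marker sums (15.16, 14.61 and 14.55) also had the 3 highest Fshr levels (9.57, 9.13 and 9.52) and the 3 highest Thra levels (11.11, 10.62 and 10.79). The array with the lowest sum, 12.96 at 6 d, had the lowest Fshr level, 7.51, and the highest Nr3c1 level, 10.55. The part of Sertoli RNA in the late falls of Fshr, Esr1, Thra and Insr within the Stra8 IP was not tested. Leydig markers were lower in Amh IP and in Stra8 IP than in total RNA (median differences of -2.43 and -2.02 over 4 measured markers, 3 and 4 of which passed), as were all 6 peritubular myoid markers in both (-1.50 and -1.45), beside the -1.20 and -1.08 of Esr1. In Ngn3 IP RNA the 4 measured Leydig markers also passed as lower than in total RNA (median difference -2.2), beside the -0.27 of Esr1. The myoid sum there was 12.08 to 12.37 in the IP and 13.73 to 13.79 in total RNA. What part Leydig and myoid RNA had in the Esr1 differences was not tested.

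**Figure D5:**
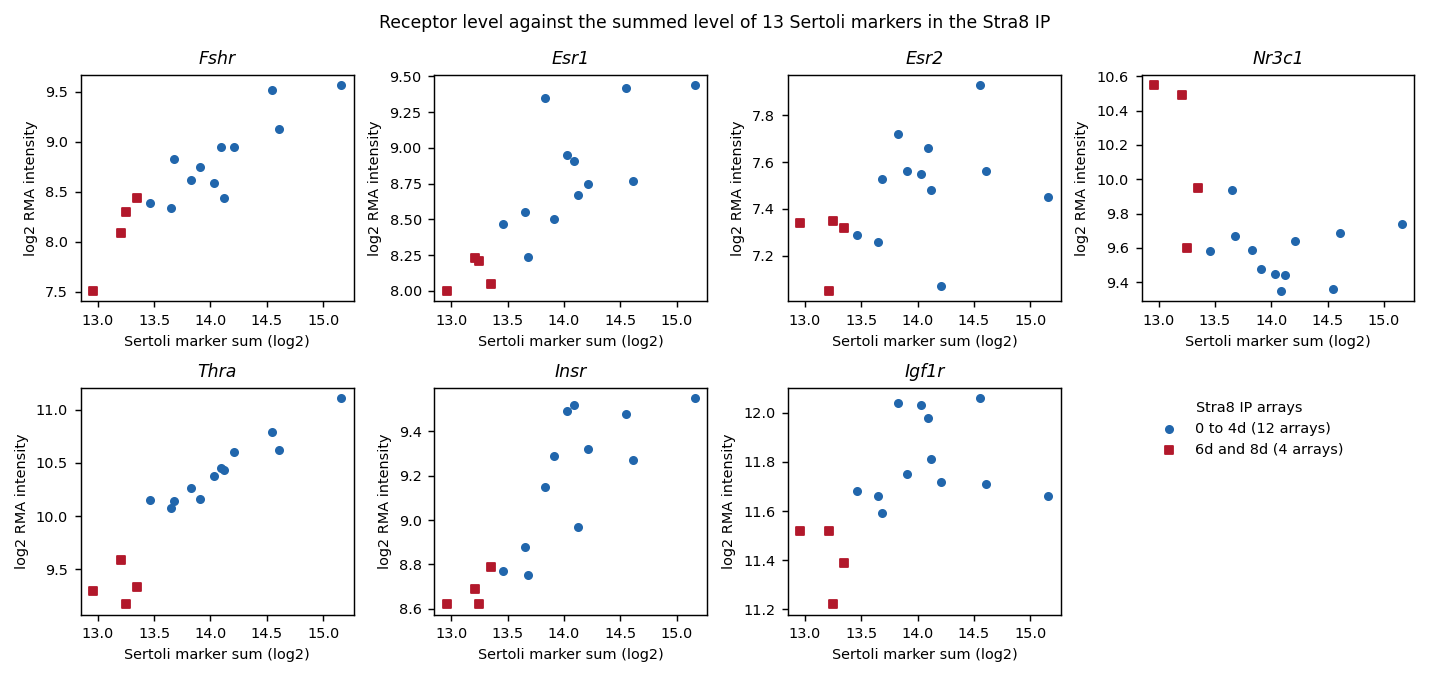
Log2 RMA intensity of each receptor gene against the log2 of the summed intensity of 13 Sertoli markers on the 16 Stra8 IP arrays; circles are arrays from 0 to 4 d and squares those of 6 d and 8 d. Late arrays lie at marker sums of 12.96 to 13.35 with the lowest Thra levels (9.17 to 9.59), and the array at 15.16 has the highest Fshr (9.57).

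Genes that act with these receptors were taken from lists chosen with earlier results of these data known, and are given as counts that passed the test between Amh and Stra8 IP RNA. Of 15 measured genes of FSH receptor signalling, 12 were higher in Amh IP and 3 lower (median 0.64, all genes 0.02), where 33.9% of all genes passed as higher and 32.6% as lower. The phosphodiesterase gene Pde4b (1.94 ± 0.06, adjusted p = 1.1e-32), the protein kinase A subunit gene Prkar2a (1.72 ± 0.05, adjusted p = 4.56e-34) and the adenylyl cyclase gene Adcy9 (1.25 ± 0.06, adjusted p = 1.46e-25) were among those higher. The arrestin gene Arrb2 was lower (-2.10 ± 0.06, adjusted p = 1.48e-34). Of 11 FSH-responsive Sertoli genes, 8 were higher and 3 lower (median 0.40), with the inhibin subunit genes Inhbb (2.66 ± 0.07, adjusted p = 2.04e-37) and Inha (2.10 ± 0.07, adjusted p = 3.03e-32) among those higher. Androgen-responsive Sertoli genes, of which 7 were measured, held 6 higher and 0 lower (median 2.52), among them Gpd1 (3.19 ± 0.10) and Tubb3 (2.83 ± 0.07). For Sertoli maturation the split was 9 higher and 4 lower of 14 (median 0.83), with Amh (3.55 ± 0.11) and the gap junction gene Gja1 (2.96 ± 0.08) higher; Amh and Cldn11 are also in the marker list.

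For the other lists the counts between the IPs were as follows. Steroid receptors and their partners had 7 higher and 5 lower of 15 (median 0), with the corepressor gene Nrip1 (1.75 ± 0.04) and the coactivator gene Ncoa1 (1.46 ± 0.04) higher and Ncoa3 (-1.27 ± 0.05) lower. Glucocorticoid-responsive genes had 4 higher and 7 lower of 12 (median -0.48), with Tsc22d3 (-2.49 ± 0.05) and the metallothionein gene Mt2 (-1.65 ± 0.04) lower and Klf9 (1.76 ± 0.06) higher. Among thyroid hormone receptors, transport and metabolism 6 were higher and 6 lower of 14 (median 0.05), with the corepressor gene Hr higher (1.21 ± 0.06) and the transporter gene Slc16a10 lower (-1.27 ± 0.08). The insulin and IGF signalling list had 11 higher and 6 lower of 19 (median 0.24): the receptor substrates Irs2 (1.21 ± 0.05) and Irs1 (1.17 ± 0.07) and the adaptor Grb14 (2.21 ± 0.08) were higher. Grb10 was lower (-1.54 ± 0.06). The IGF ligand genes were lower in Amh IP than in Amh total RNA, Igf1 (-2.04 ± 0.08, adjusted p = 1.18e-26) and Igf2 (-1.96 ± 0.06, adjusted p = 2.56e-32). Ligands and other receptors of that family had 1 higher and 3 lower of 7 between the IPs (median -0.01). A list of 10 measured genes held secreted IGF binding proteins, the gene Igfals of the same serum complex, and Igf2bp1 and Igf2bp3, which encode proteins that bind RNA and not IGFs. It had 1 higher, Igfbp3 (1.12 ± 0.09), and 6 lower (median -0.27), of which Igfbp2 (-2.36 ± 0.08) was the most changed IGF binding protein gene and Igf2bp1 (-2.67 ± 0.07) an RNA-binding one.

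The same lists were counted late minus early in Amh IP RNA, where 16.9% of all genes passed as higher and 15.1% as lower. The androgen receptor is not among the 7 members, and 6 of 7 androgen-responsive genes rose and 0 fell (median 0.70, all genes 0.04), Corin by 1.16 ± 0.18 (adjusted p = 5.09e-07). In the glucocorticoid-responsive list 6 of 12 rose and 2 fell (median 0.18), with the kinase gene Sgk1 up by 1.37 ± 0.11 (adjusted p = 9.78e-15) and Mt2 by 1.10 ± 0.06 (adjusted p = 9.69e-20). Of the Sertoli maturation list 4 of 14 rose and 3 fell (median -0.05): the water channel gene Aqp8 (1.88 ± 0.17), the transferrin gene Trf (1.42 ± 0.16) and Ccnd1 (1.07 ± 0.18) rose, and the cyclin gene Ccnd2 fell (-1.53 ± 0.11, adjusted p = 6.34e-16). The FSH-responsive list had 3 of 11 up and 2 down (median -0.08), and FSH receptor signalling 4 of 15 up and 7 down (median -0.02), with the arrestin gene Arrb1 up by 1.12 ± 0.14 (adjusted p = 3.83e-09). In the list of IGF binding and Igf2 RNA-binding proteins Igfals rose (0.18 ± 0.07), and Igfbp3 (-0.94 ± 0.15) and Igf2bp3 (-1.42 ± 0.13) fell. The remaining lists had 3 of 15 up and 2 down (steroid receptors and partners), 4 of 14 up and 2 down (thyroid hormone), 1 of 7 up and 3 down (insulin and IGF ligands) and 3 of 19 up and 6 down (insulin and IGF signalling).

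The genes most like each member, by Pearson's r over the 35 group means, are given with no p, since the groups share lines and fractions. Fshr was most like Reep2 (0.988), Jam2 (0.987) and Zadh2 (0.987), and Thra like Gpx8 (0.98), Nfib (0.962) and Wbp1l (0.962). Insr was most like Crtc3 (0.973), Ppm1k (0.968) and Gata6 (0.965), and Esr1 like Cxcl12 (0.942), Ddr2 (0.938) and Egflam (0.936). Lower maxima were found for Igf1r, with Zfyve1 (0.921), Klhl21 (0.892) and Washc2 (0.888), for Esr2, with Gpd2 (0.876), Tll2 (0.865) and Slc29a3 (0.863), and for Nr3c1, with Phykpl (0.856), Syp (0.849) and Fgfr3 (0.836).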

How the data were processed

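The authors deposited RMA intensity values on a linear scale, with RMA named in the submitters' processing notes. The version and settings of RMA: not given in the sources used here. Values were converted to log2 without further scaling. Of 28853 probe sets, 23410 were listed with genes (5443 were not), 1621 of these with several genes, and 99.6% of gene numbers matched the gene table; the probe set with the highest mean was used for each of 19938 genes. The number of arrays limits the precision. The smallest intensity per array was 25.1 to 26.3.

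A single limma 3.58.1 model (R 4.3.3) gave each of 35 groups a mean, with empirical Bayes moderation, an intensity trend and Benjamini-Hochberg adjustment over all genes; contrasts weighted times equally, and tests were two-sided. "Passed" means an adjusted p under 0.05, "called" also at least 2-fold. Errors are standard errors of the fit. The fit was tested on simulated data. Members and lists were chosen with earlier results of these data known. Named were the members, the 3 genes most like each, and at most 4 called genes per list and comparison; FSH signalling, FSH-, androgen- and glucocorticoid-responsive, steroid, thyroid, insulin/IGF (ligands, signalling, binding proteins) and maturation lists were counted. Rarb and Nr1d1 are outside this rule and were chosen after their values were seen. Igfals and Igfbp3, named late minus early in Amh IP RNA, passed but were not called and are outside this rule too. Same-numbered IP and total arrays of the Amh line deviated together in 7 of 7 times (correlations 0.114 to 0.585, minimum 0.1). Numbers may therefore pair that line, as judged from the data. In Ngn3 2 of 2 times did so and in Stra8 4 of 8. Same-numbered arrays of different times also exceeded 0.1, in 8 of 28 Stra8 IP pairs (up to 0.489) and 1 of 28 Amh IP pairs (0.373). The main fit did not use the numbers. Figures used Python 3.11.15, pandas 2.3.3 and matplotlib 3.10.9. Alternatives were a filter on the 30% of genes with the lowest signal, median centring, quantile normalisation, the mean of probe sets, the replicate block, the compared groups alone, no trend, no fold minimum, each array left out, and leaving out the Amh arrays labelled 4 h and 4 d; leaving out 3 narrow arrays was added after seeing the data.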

Additional observations from a re-analysis of the deposited data

Results flagged for a closer look

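The late minus early change differed between the Amh and Stra8 IP fractions for 4 members by the test of the difference itself in the limma fit. For Fshr the Amh change exceeded the Stra8 change by 0.94 ± 0.16 on the log2 scale (adjusted p = 5.15e-06), for Insr by 0.43 ± 0.14 (adjusted p = 0.00984) and for Esr1 by 0.37 ± 0.15 (adjusted p = 0.0404, up to 0.127 without single arrays), while for Nr3c1 the difference was -0.75 ± 0.15 (adjusted p = 3.72e-05). Beside these, the Sertoli marker sum of the Stra8 IP was 13.46 to 14.61 early and 12.96 to 13.35 late, and its part in the differences was not tested. A single array far from the rest could be looked for only in the 3 groups of 4 arrays, and in 0 of the 21 sets of values (7 members in each of these groups) was one found; the smaller groups were not examined.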

How the results depend on the processing

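The 98 results on single members gave 2765 values under the alternatives, many of them from the same refit. Of these values, 2612 kept direction and side of the threshold, 93 missed the threshold and 22 newly passed it. Another 36 changed the sign of a value that passed in neither fit. A further 2 changed the sign of a value that had passed, Igf1r in Amh IP against total RNA with quantile normalisation (-0.05) and Nr3c1 over the Amh IP course without the arrays labelled 4 h and 4 d (-0.31); the cause was not tested. With no fold minimum, by construction, member counts were 7, 7, 6, 6 and 2 for Amh, Stra8 and Ngn3 IP against total RNA, the Amh against Stra8 IP and their total RNA. They were 6, 7, 7 and 7 over the Amh IP, Stra8 IP, Amh total and Stra8 total courses. They were 1, 7, 4 and 4 late minus early in the same order, and 4 for the difference between the IPs. The median of all genes' largest differences over the Stra8 IP course moved from -0.08 to 0.10 with median centring and 0.12 with quantile normalisation. With the 2-fold minimum kept, median centring gave 2 members called for Amh IP against total RNA, where the main fit gave 1. Quantile normalisation, by the same rule, gave 1 for Amh IP over time and 1 each for Stra8 IP and Amh total RNA late minus early. The main fit gave 0 for each of these. Counts at 2-fold with single arrays left out ranged from 2 to 4 for the Stra8 IP course and from 1 to 2 for the Amh total course. They ranged from 2 to 3 for Ngn3 IP against total RNA and from 0 to 1 for the Amh IP course. Late minus early they ranged from 0 to 1 for Amh IP, Stra8 IP, Amh total RNA and the difference between the IPs. The other counts held. With the replicate number as a block, the member counts at 2-fold of IP against total RNA were 1, 3 and 2 and no call of that pairing changed. Fshr and Igf1r between the totals (0.203 and 0.135) and Esr1 between the late changes of the IPs (0.0556) missed the threshold. So did the F tests over time of Igf1r in Amh IP (0.0767), Fshr in Amh total (0.0635) and Esr1 (0.0896), Igf1r (0.0735), Insr (0.0607) and Nr3c1 (0.114) in Stra8 total RNA. Same-numbered IP and total arrays deviated together at all times in the Amh and Ngn3 lines, but at 4 of 8 in Stra8. The blocks of every line and those across times are given as hints.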
